A study of Mus musculus with 6 samples.

Results

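Fatty acid oxidation was followed through 34 genes of mouse intestinal epithelium, chosen by name from the deposited gene count table of 54532 genes. They were 3 genes of the carnitine shuttle, 14 enzymes and electron carriers of mitochondrial beta-oxidation, 9 peroxisomal genes, and 8 genes that comprised Ppara itself and genes known as targets of its product or as regulators of fuel use. All 34 were in the table, and 32 were among the 16313 genes with enough counts to test. The other two, Cyp4a10 and Cyp4a14, were too low. RNA with a polyA tail was sequenced from 3 libraries of epithelium from mice gavaged with the yeast Candida albicans and 3 from mice gavaged with phosphate-buffered saline (PBS). Gavage was repeated every 3 days over 2 weeks, and all mice of both groups carried the Apoe-/- genotype, used as a model of atherosclerosis because it lacks functional apolipoprotein E. Which intestinal segment was taken, the age and sex of the mice, and whether a library is a single mouse are details that the labels leave out, so p-values measure the spread between libraries, which may be technical. The question behind the comparison is how the gut epithelium of such mice responds, in gene expression, to the yeast.

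Fatty acids enter mitochondria as carnitine esters and are shortened there by repeated cycles of dehydrogenation, hydration, a further dehydrogenation and thiolysis, with electrons passed to the respiratory chain. Very long and branched chains are first shortened in peroxisomes, by a separate set of enzymes. PPAR alpha is a nuclear receptor that binds fatty acids, pairs with RXR, and raises transcription of many genes of both pathways in liver and in the small intestine, where absorbed dietary fat reaches the enterocyte.

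Totals lay between 21406930 and 24891735 counts per library. Apoe transcripts were counted in both groups, at 75.98, 58.6 and 51.8 CPM in the Candida albicans libraries and 106, 84.7 and 59.2 CPM in the PBS libraries (CPM here are counts scaled to the TMM-normalised library total), which cannot show which part of the gene was altered. All 8 epithelial markers were counted in every library. Epcam, Vil1, Krt20 and Cldn7 were higher in all Candida albicans libraries, Krt18 was lower, and Cdh1, Krt8 and Krt19 overlapped. The summed level of 10 smooth muscle markers was 1792, 234 and 206 CPM in Candida albicans replicates 1 to 3 and 7055, 524 and 3493 CPM in PBS replicates 1 to 3, so that PBS replicates 1 and 3 and Candida albicans replicate 1 stood apart. The summed level of 10 mature enterocyte markers was 64100, 57250 and 44210 CPM in the Candida albicans libraries and 29550, 17280 and 8718 CPM in the PBS libraries, without overlap. Taken singly, 9 of these 10 markers were higher in all Candida albicans libraries, against 17.6% of all genes tested. Of 10 crypt and cycling cell markers, Mki67 and Cdk1 were lower in all Candida albicans libraries and 8 overlapped. The share of all genes tested that were lower in this way was 18.1%. Summed markers of the proximal small intestine (7 genes) were 2241, 2147 and 1160 CPM with Candida albicans and 519, 309 and 239 CPM with PBS, without overlap. The largest part was Lct, which is also among the 10 enterocyte markers. Lct had 2028, 1942 and 975 CPM with Candida albicans and 398, 219 and 99.6 CPM with PBS. Singly, 3 of the 7 were higher without overlap, against 17.6% of all genes tested. The other 4 overlapped, with lower Candida albicans means for Onecut2, Cybrd1 and Slc40a1. Mitochondrially encoded genes took 3.19% to 4.63% of counts in the Candida albicans libraries and 5.89% to 8.92% in the PBS libraries. The summed level of 8 adipocyte markers was 297, 230.1 and 186 CPM in the Candida albicans libraries and 268, 97.3 and 77.0 CPM in the PBS libraries, with overlap. Most of it was Cidec and Lipe, while Lep was at 0 in every library and Adipoq and Plin1 were at or near 0 except in PBS replicate 1, where Adipoq had 4.42 CPM, Cfd 24.1 CPM and Fabp4 44.6 CPM. In such bulk samples, more cells of a type and more RNA per cell cannot be told apart.

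Most of the 32 tested members were higher in the Candida albicans libraries, with a larger median among peroxisomal than mitochondrial members. The short branched-chain dehydrogenase gene Acadsb went the other way. In 20 of the 32 tested members, every Candida albicans library was above every PBS library, and in 1 member, Acadsb, every one was below. The same held for 17.6% (higher) and 18.1% (lower) of all genes tested. In edgeR's quasi-likelihood test 20 members had an unadjusted p under 0.05 on the higher side and 1 on the lower side, against 13.4% and 16.2% of all genes. After Benjamini-Hochberg adjustment 0 members and 0 of 16313 genes (0%) passed the threshold of 0.05, and the smallest adjusted p over all genes was 0.054. With the threshold set at 0.1, edgeR's adjusted p placed 16 members on the higher side and 1 on the lower side, against 6.61% and 6.04% of all genes. The median log2 fold change, Candida albicans over PBS, was 0.52 for the 32 tested members and -0.16 for all genes tested, and 26 members were positive where 39.5% of all genes were. Members were chosen with earlier results of these data known. Of 28 further carnitine and mitochondrial genes, 15 were positive and 13 negative, with a median of 0.05. On a further peroxisomal list 41 were positive and 11 negative, with a median of 0.34. Differences are therefore described below by their values in each library, with edgeR's adjusted p, and none passed at 0.05.

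Several choices moved the number of members called at 0.05, among them the tool and whether PBS replicate 1 was kept. The DESeq2 Wald test called 19 members higher and 1 lower, against 10.7% and 7.15% of all genes. With sample quality weights limma-voom called 16 and 1, against 7.55% and 8.2%, and without them 0 and 0 (0% of all genes). Without a count filter edgeR called 9 higher and 0 lower, against 1.02% and 0.885% of all genes, and under library totals 1 on each side, against 0.0858% and 1.07%. Without PBS replicate 1 edgeR called 18 higher and 1 lower, against 10.1% and 5.53% of all genes, and without any other single library 0. Without replicate 1 of both groups it called 14 higher and 0 lower, against 7.02% and 6.02%. The 16 higher members at an adjusted p under 0.1 became 9 without Candida albicans replicate 1, against 2.09% of all genes. Without PBS replicate 1 the number was 19, against 15.5% of all genes. Leaving out any other single library gave 0, against 0% of all genes. At an unadjusted p under 0.05 the same removals gave 17 to 22 higher members and 1 lower member each time. Over all genes the shares at that unadjusted threshold were 8.54% to 18.8% higher and 8.63% to 18.7% lower. With the smooth muscle score (the mean log2 CPM of the 10 markers) as a covariate it was 13 higher and 1 lower, against 10.7% and 13.4% of all genes. Under scaling by library totals alone it was 11 and 1, against 5.28% and 33% of all genes. That scaling also moved the all-gene median to -0.45. The part of the enterocyte and proximal markers in these differences was not tested.

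**Figure D1:**
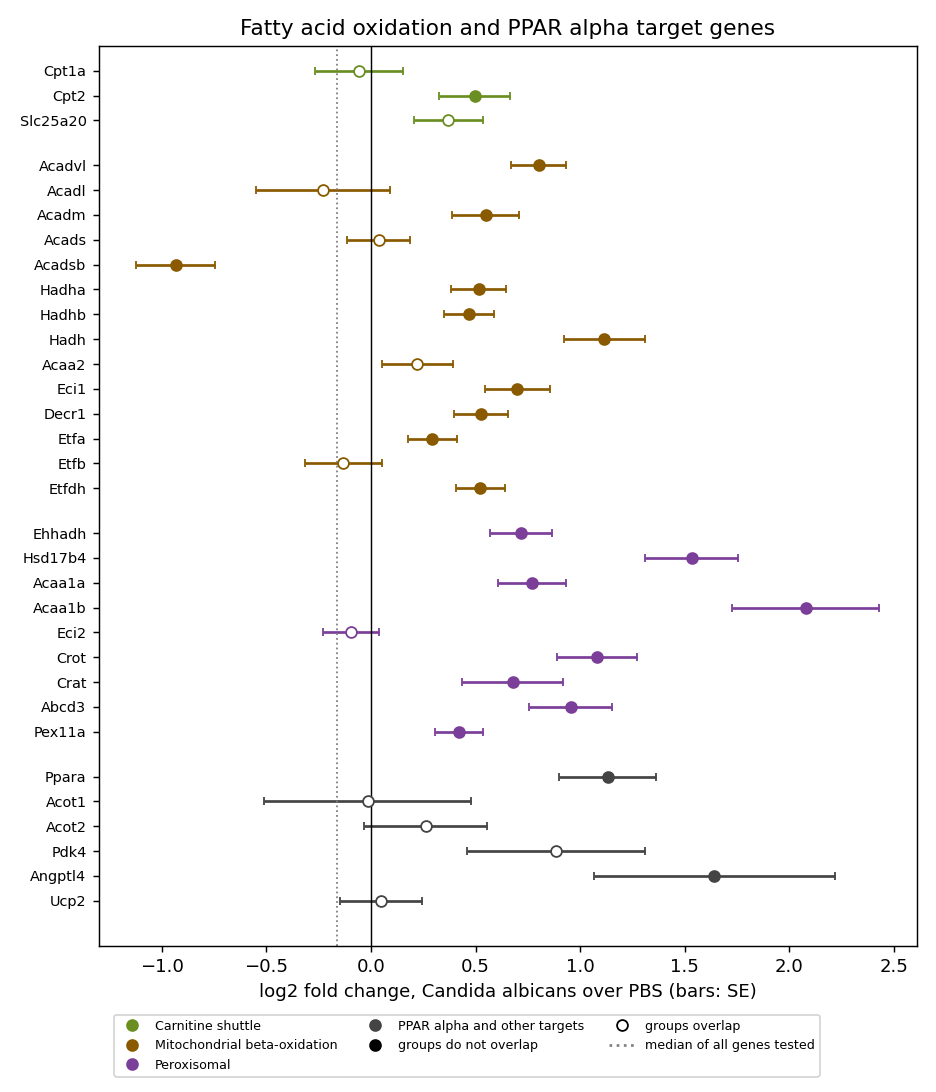
Log2 fold change of each tested member, Candida albicans over PBS, with its standard error (edgeR), grouped by role. Filled points are members whose groups did not overlap, open points those whose groups did, and the dotted line is the median of all genes tested, at -0.16; 20 filled points lie to the right of 0 and 1, Acadsb, to the left.

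Of the 3 carnitine shuttle genes, Cpt2 was higher in every Candida albicans library, and the groups overlapped in Cpt1a and Slc25a20. Cpt1a, the outer-membrane transferase that controls entry of long chains into mitochondria, had 149, 170.1 and 229 CPM in Candida albicans replicates 1 to 3 and 158, 224 and 188 CPM in PBS replicates 1 to 3. The groups overlapped almost entirely, with a log2 fold change of -0.06 (SE 0.21, adjusted p = 0.87), and it was 0.03 under DESeq2 size factors and -0.45 with the smooth muscle covariate. Slc25a20, the carrier that exchanges acylcarnitine for carnitine across the inner membrane, had 155, 136 and 193 CPM with Candida albicans and 117, 138 and 119.7 CPM with PBS. Candida albicans replicate 2 lay within the PBS range, and the log2 fold change was 0.37 (SE 0.16, adjusted p = 0.18). Cpt2, which regenerates acyl-CoA inside the mitochondrion, had 159, 157 and 169.8 CPM with Candida albicans and 105, 142 and 97.2 CPM with PBS. Its groups did not overlap, although PBS replicate 2 came close, and the log2 fold change was 0.50 (SE 0.17, adjusted p = 0.12).

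Among the acyl-CoA dehydrogenases, which start each mitochondrial cycle and differ by the chain length they prefer, the differences did not follow a single direction. Acadvl, for very long chains (ENSMUSG00000018574, chromosome 11, 70010183 to 70015411, build mm10 as for all table coordinates here), had 106, 123 and 112 CPM in the Candida albicans libraries and 71.9, 66.2 and 56.8 CPM in the PBS libraries. The lowest Candida albicans library was above the highest PBS library, and the log2 fold change was 0.80 (SE 0.13, adjusted p = 0.073). Acadl, for long chains, had 221, 193 and 163 CPM with Candida albicans and 146, 341 and 189.5 CPM with PBS. PBS replicate 2 was the highest of all libraries and PBS replicate 1 the lowest, so the groups overlapped (log2 fold change -0.23, SE 0.32, adjusted p = 0.64). Removing PBS replicate 2 gave 0.27. Acadm, for medium chains, had 150.1, 150.4 and 169 CPM with Candida albicans and 126, 87.2 and 108 CPM with PBS, without overlap and with a log2 fold change of 0.55 (SE 0.16, adjusted p = 0.099). Acads, for short chains, had 105, 112 and 130.1 CPM with Candida albicans and 97.6, 112 and 129 CPM with PBS, and the groups overlapped (log2 fold change 0.04, SE 0.15, adjusted p = 0.88). Its sign turned to -0.25 under library totals and -0.12 with the smooth muscle covariate.

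Acadsb, which acts on short branched chains and takes part in isoleucine breakdown, was the lower member (ENSMUSG00000030861, chromosome 7, 131410601 to 131448944). It had 8.59, 8.93 and 8.44 CPM in the Candida albicans libraries, nearly the same in each, and 19.99, 13.6 and 16.04 CPM in the PBS libraries, highest in PBS replicate 1. Its log2 fold change was -0.93 (SE 0.19, adjusted p = 0.078). The span of the gene overlaps that of Fgfr2 on the opposite strand, whose mean count was 448 per library against 304 for Acadsb. With the strand setting not given, reads from any stretch shared by exons of both cannot be told apart. Whether exons are shared was not checked. As a description on the scale of CPM per kilobase of gene length, Acadsb made up 0.51% to 0.54% of the summed level of these 5 dehydrogenases in the Candida albicans libraries and 0.70% to 1.57% in the PBS libraries. Acadvl made up 16.7% to 19.8% in the Candida albicans libraries and 9.19% to 15.1% in the PBS libraries, again without overlap.

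The window around the Acadvl start site is shown because it is the only printed promoter with a core AGGTCA motif, the element that nuclear receptors including PPAR alpha with RXR recognise as a repeat. The RefSeq window (GRCm38.p6, chr11:70015379-70015678, minus strand) runs from 250 bases before the start site to 50 after, 5′ to 3′, with the motif in capitals.
Acadvl: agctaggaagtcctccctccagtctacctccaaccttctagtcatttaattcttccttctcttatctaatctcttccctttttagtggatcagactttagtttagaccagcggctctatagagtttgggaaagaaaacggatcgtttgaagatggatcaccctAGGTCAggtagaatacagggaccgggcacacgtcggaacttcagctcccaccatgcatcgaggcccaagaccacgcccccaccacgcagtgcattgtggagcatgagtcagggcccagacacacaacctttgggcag
The motif lies 87 to 82 bases before the start site, on the gene's own strand. RefSeq windows were matched for 27 of the 34 members. A member was counted once if any of its windows held the motif, while shares of all windows count single windows, not genes. AGGTCA, searched on both strands, was in 3 of the 27 (Acadm, Acadvl and Cpt1a), against 16.3% of all 32817 windows. The direct repeat recognised by PPAR alpha with RXR (AGGTCA, any 1 base, AGGTCA), and a looser form that contains it and allows any base before the CA of each copy, were in 0 of the 27, against 0.04% and 0.38% of all windows. A match is a description of letters, and sites outside these windows were not searched.

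Among members for the steps after the first dehydrogenation, Hadha, Hadhb and Hadh were higher with Candida albicans, while the groups overlapped in Acaa2. Hadha and Hadhb encode the alpha and beta subunits of the mitochondrial trifunctional protein, which hydrates, oxidises and cleaves long chains. Hadha had 429, 431 and 438 CPM in the Candida albicans libraries and 310.5, 320.4 and 278 CPM in the PBS libraries, with a log2 fold change of 0.51 (SE 0.13, adjusted p = 0.087). Hadhb had 159.9, 176 and 189 CPM with Candida albicans and 129, 124 and 127 CPM with PBS, with a log2 fold change of 0.47 (SE 0.12, adjusted p = 0.085). Neither gene's groups overlapped, and the ratio of Hadha to Hadhb per kilobase stayed within 1.75 to 2.03 in the Candida albicans libraries and 1.66 to 1.96 in the PBS libraries. Hadh, the short-chain 3-hydroxyacyl-CoA dehydrogenase, differed most among the mitochondrial members. It had 588, 629.8 and 586 CPM with Candida albicans and 339.5, 220.0 and 273 CPM with PBS, and every Candida albicans library was above the highest PBS library (log2 fold change 1.12, SE 0.19, adjusted p = 0.073). Acaa2, the mitochondrial thiolase, had 99.5, 125 and 132 CPM with Candida albicans and 97.2, 88.8 and 120.2 CPM with PBS, with overlap and a log2 fold change of 0.22 (SE 0.17, adjusted p = 0.39), which was -0.07 under library totals.

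Hadha and Hadhb lie head to head on chromosome 5, and their windows share 228 bases. The Hadhb window is shown for this reason (RefSeq, GRCm38.p6, chr5:30155003-30155302, plus strand, 5′ to 3′), with matches of the GC box GGGCGG, on either strand, in capitals.
Hadhb: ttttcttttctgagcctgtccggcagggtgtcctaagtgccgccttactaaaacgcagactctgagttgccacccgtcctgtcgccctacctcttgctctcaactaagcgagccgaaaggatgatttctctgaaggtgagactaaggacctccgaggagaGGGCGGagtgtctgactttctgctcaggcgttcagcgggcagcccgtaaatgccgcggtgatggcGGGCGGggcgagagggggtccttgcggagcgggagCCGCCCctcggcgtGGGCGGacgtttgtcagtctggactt
It holds 4 GC boxes, neither AGGTCA nor TATAAA, and 60.7% G and C bases. GGGCGG, searched on both strands, was in 20 of the 27 matched members and in 35.6% of all windows, while TATAAA was in 0 of the 27 and in 13.6% of all windows.

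Eci1, Decr1, Etfa and Etfdh were higher in all Candida albicans libraries, while Etfb overlapped between the groups. Eci1, which moves double bonds of unsaturated chains into place, had 69.9, 68.8 and 63.2 CPM with Candida albicans and 45.6, 32.7 and 45.9 CPM with PBS (log2 fold change 0.70, SE 0.16, adjusted p = 0.079). Decr1, the dienoyl-CoA reductase, had 121, 116 and 105 CPM with Candida albicans and 76.1, 71.8 and 89.8 CPM with PBS (log2 fold change 0.53, SE 0.13, adjusted p = 0.084). In both, the lowest Candida albicans library was above the highest PBS library. Etfa and Etfb encode the subunits of the flavoprotein that takes electrons from the dehydrogenases, and they differed. Etfa had 133, 152 and 133 CPM with Candida albicans and 113, 119.6 and 108 CPM with PBS, without overlap and with a log2 fold change of 0.29 (SE 0.12, adjusted p = 0.15). Etfb had 17.97, 19.2 and 15.9 CPM with Candida albicans and 15.2, 21.9 and 21.1 CPM with PBS, with overlap and a log2 fold change of -0.13 (SE 0.18, adjusted p = 0.64), which was 0.04 without PBS replicate 2. Etfdh, which passes those electrons to ubiquinone, had 85.5, 94.8 and 104 CPM with Candida albicans and 68.4, 67.7 and 62.00 CPM with PBS, and its groups did not overlap (log2 fold change 0.52, SE 0.12, adjusted p = 0.079).

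Counted together, 10 of the 17 carnitine shuttle and mitochondrial members were higher in all Candida albicans libraries without overlap and 1 was lower, against 17.6% and 18.1% of all genes, and their median log2 fold change was 0.47. Their summed level was 2756, 2864 and 2941 CPM in Candida albicans replicates 1 to 3 and 2035, 2190 and 2030 CPM in PBS replicates 1 to 3, with means of 2854 ± 93.1 CPM for Candida albicans and 2085 ± 91.0 CPM for PBS (± SD, n = 3 each). The sums did not overlap. Under library totals the median was 0.19, and with the smooth muscle covariate 0.33.

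**Figure D2:**
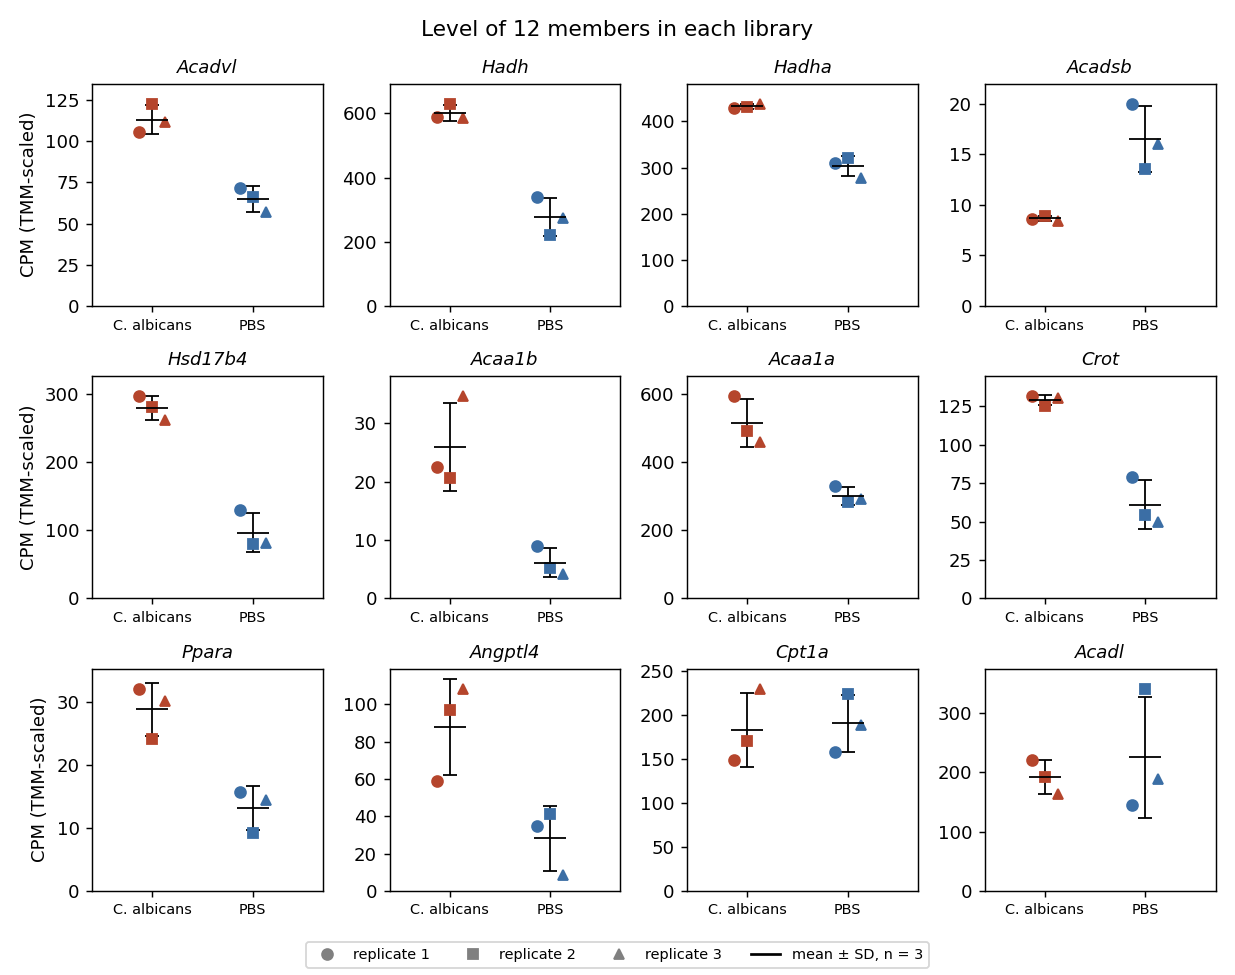
CPM of 12 members in each library, with marker shapes for the replicate number and black lines for the mean ± SD of 3 libraries. Acadvl, Hadh, Hadha, Hsd17b4, Acaa1b, Acaa1a, Crot, Ppara and Angptl4 had every Candida albicans library above every PBS library, Acadsb had every one below, and Cpt1a and Acadl overlapped.

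Among the peroxisomal genes, in 8 of the 9 all Candida albicans libraries exceeded all PBS libraries, against 17.6% of all genes. The median log2 fold change of the 9 was 0.77. Hsd17b4, the D-bifunctional protein that hydrates and oxidises very long and branched chains (ENSMUSG00000024507), had 297, 281 and 262 CPM in the Candida albicans libraries and 129.8, 79.7 and 80.7 CPM in the PBS libraries. PBS replicate 1 was the highest of the PBS libraries but far under all 3 Candida albicans libraries, and the log2 fold change was 1.53 (SE 0.22, adjusted p = 0.073). Without PBS replicate 1 it was 1.92. The gene contains the pseudogene Cd63-ps on the same strand, which had a mean of 310.3 counts per library against 4247 for Hsd17b4. Ehhadh, the L-bifunctional protein, had 82.6, 93.6 and 91.4 CPM with Candida albicans and 65.1, 48.7 and 48.9 CPM with PBS, without overlap (log2 fold change 0.72, SE 0.15, adjusted p = 0.078). Per kilobase, the ratio of Ehhadh to Hsd17b4 was 0.32 to 0.40 in the Candida albicans libraries and 0.57 to 0.70 in the PBS libraries, without overlap.

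Acaa1a and Acaa1b encode peroxisomal thiolases, which carry out the last step of the cycle, and lie near each other on chromosome 9. Acaa1b (ENSMUSG00000010651, 119148023 to 119157093) had 22.6, 20.6 and 34.6 CPM with Candida albicans and 9.03, 5.17 and 4.21 CPM with PBS, the largest log2 fold change among the tested members at 2.08 (SE 0.35, adjusted p = 0.073). Candida albicans replicate 3 was the highest, and all PBS libraries were under 10 CPM. Acaa1a (ENSMUSG00000036138, 119339676 to 119350299) was far more abundant, with 594, 493 and 459.7 CPM in the Candida albicans libraries and 332, 282 and 292 CPM in the PBS libraries, without overlap (log2 fold change 0.77, SE 0.16, adjusted p = 0.079). Per kilobase, Acaa1b was 0.085, 0.094 and 0.17 of Acaa1a in the Candida albicans libraries and 0.061, 0.041 and 0.032 of it in the PBS libraries. The genes resemble each other: 30.5% of the windows of 50 bases in Acaa1b transcripts, and 12.4% of those in Acaa1a transcripts, also occur in the other gene (GENCODE M21). Reads from shared stretches could have been dropped or assigned to either, so single values for the pair are uncertain. Acaa1a also overlaps Myd88 on the opposite strand, which had a mean of 850 counts per library against 9370 for Acaa1a.

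The start-site windows of the pair are shown to compare a paralog with a large difference and its abundant neighbour (RefSeq, GRCm38.p6; Acaa1b at chr9:119157044-119157343, minus strand, and Acaa1a at chr9:119341044-119341343, plus strand). Both run 5′ to 3′ from 250 bases before the start site to 50 after, with GGGCGG on either strand in capitals.
Acaa1b: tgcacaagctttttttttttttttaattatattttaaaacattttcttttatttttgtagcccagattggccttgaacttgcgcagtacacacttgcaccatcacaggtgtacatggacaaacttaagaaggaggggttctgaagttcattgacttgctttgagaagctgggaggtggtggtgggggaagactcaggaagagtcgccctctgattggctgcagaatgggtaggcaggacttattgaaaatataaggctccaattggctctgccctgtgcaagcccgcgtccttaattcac
Acaa1a: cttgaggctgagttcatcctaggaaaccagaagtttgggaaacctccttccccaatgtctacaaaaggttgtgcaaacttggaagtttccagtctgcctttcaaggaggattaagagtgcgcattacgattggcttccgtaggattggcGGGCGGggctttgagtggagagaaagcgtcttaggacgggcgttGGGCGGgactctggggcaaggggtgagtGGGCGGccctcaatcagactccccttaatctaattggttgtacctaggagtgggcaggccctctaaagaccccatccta
The Acaa1a window has 3 GC boxes, all on the gene's strand, and 53.3% G and C bases. The Acaa1b window has no GC box and 43.7% G and C bases. Neither window holds AGGTCA or the direct repeats searched, and TATAAA is likewise in neither.

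Of the remaining peroxisomal members, Abcd3, Crot, Crat and Pex11a did not overlap between the groups and Eci2 did. Abcd3, the membrane transporter for branched and long-chain substrates, had 439, 409.6 and 487 CPM with Candida albicans and 272, 242 and 175 CPM with PBS, without overlap (log2 fold change 0.95, SE 0.20, adjusted p = 0.078). Crot, the octanoyltransferase that prepares shortened chains for export as carnitine esters, had 132, 125 and 130.5 CPM in the Candida albicans libraries and 79.2, 54.4 and 49.5 CPM in the PBS libraries. Its Candida albicans libraries were close together, and the log2 fold change was 1.08 (SE 0.19, adjusted p = 0.073). Crat, the acetyltransferase found in peroxisomes and mitochondria, had 179, 129.6 and 120.5 CPM with Candida albicans and 118, 78.95 and 71.6 CPM with PBS. Candida albicans replicate 3 only just exceeded PBS replicate 1, and the log2 fold change was 0.68 (SE 0.24, adjusted p = 0.13), with 1.04 without PBS replicate 1. Crat overlaps Dolpp1 on the opposite strand, which had nearly as many counts (a mean of 2569 per library against 2672). Pex11a, which promotes peroxisome division and is a PPAR alpha target in mouse liver, had 59.1, 61.9 and 59.3 CPM with Candida albicans and 39.9, 49.9 and 45.05 CPM with PBS, without overlap (log2 fold change 0.42, SE 0.12, adjusted p = 0.093). Eci2, an enoyl-CoA isomerase present in peroxisomes and mitochondria, was the exception, with 50.5, 60.8 and 63.1 CPM with Candida albicans and 59.9, 56.8 and 69.6 CPM with PBS. Its groups overlapped (log2 fold change -0.10, SE 0.14, adjusted p = 0.65), and the value ran between -0.38 under library totals and 0.09 without replicate 1 of both groups.

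The summed level of the 9 peroxisomal members was 1856, 1675 and 1708 CPM in Candida albicans replicates 1 to 3 and 1105, 898 and 837 CPM in PBS replicates 1 to 3, with means of 1746 ± 96.1 CPM for Candida albicans and 947 ± 140.4 CPM for PBS (± SD, n = 3 each). The ratio of the peroxisomal to the mitochondrial sum was 0.67, 0.58 and 0.58 in the Candida albicans libraries and 0.54, 0.41 and 0.41 in the PBS libraries. The ratios did not overlap, but Candida albicans replicates 2 and 3 exceeded PBS replicate 1 by little, and with 3 libraries against 3 a two-sided exact permutation test cannot give a p below 0.1. Without PBS replicate 1 the median log2 fold change of peroxisomal members was 1.04 and that of mitochondrial members 0.55, and with the smooth muscle covariate they were 0.99 and 0.33. Under library totals they were 0.48 and 0.19, so peroxisomal members kept the larger median under each of these alternatives. In mean the enterocyte markers were 2.98 times as high with Candida albicans, the mitochondrial sum 1.37 times and the peroxisomal sum 1.84 times.

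**Figure D3:**
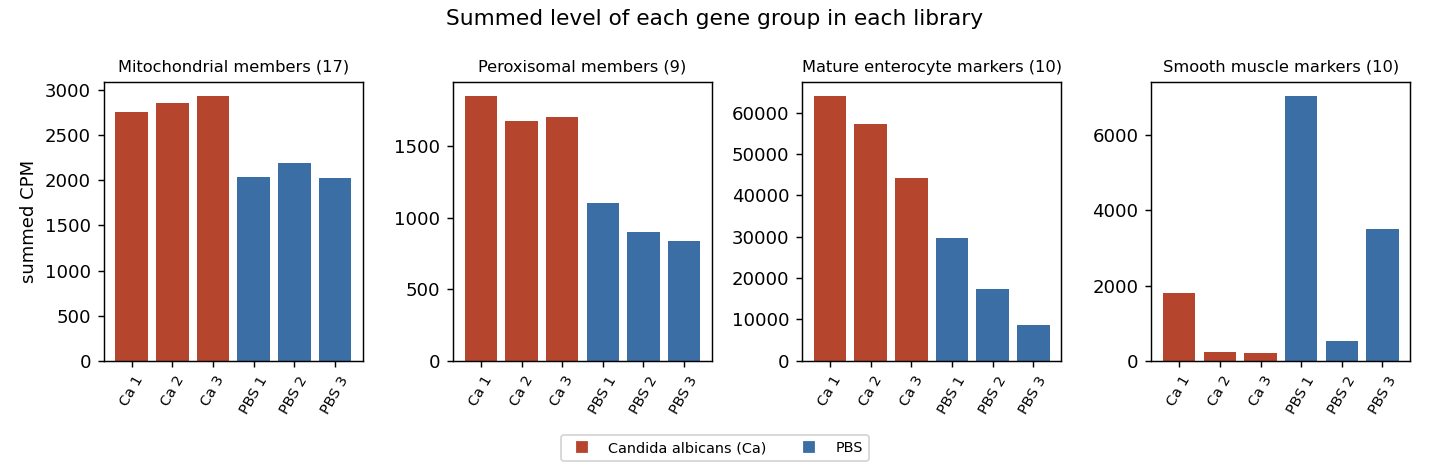
Summed CPM in each library of the 17 mitochondrial members, the 9 peroxisomal members, 10 mature enterocyte markers and 10 smooth muscle markers, with an axis of its own for each group. Sums of both member groups and of the enterocyte markers were higher in all 3 Candida albicans libraries, while smooth muscle markers varied within both groups, from 206 to 1792 CPM with Candida albicans and from 524 to 7055 CPM with PBS.

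Ppara, the receptor gene itself (ENSMUSG00000022383, chromosome 15, 85734983 to 85802819), was higher with Candida albicans. Of the 5 other tested members of its group, Angptl4 did not overlap, and Pdk4, Acot1, Acot2 and Ucp2 did. Ppara had 32.1, 24.2 and 30.2 CPM in the Candida albicans libraries and 15.8, 9.26 and 14.4 CPM in the PBS libraries, without overlap, and a log2 fold change of 1.13 (SE 0.23, adjusted p = 0.078). Angptl4, a secreted inhibitor of lipoprotein lipase, had 58.8, 96.8 and 108 CPM with Candida albicans and 34.8, 41.5 and 8.30 CPM with PBS. The PBS libraries were widely spread, replicate 3 being lowest, and the log2 fold change of 1.64 (SE 0.58, adjusted p = 0.13) was 1.03 with the smooth muscle covariate. Pdk4, a kinase that inhibits pyruvate dehydrogenase and is induced in fasting, had 19.6, 23.5 and 32.1 CPM with Candida albicans and 21.7, 6.78 and 12.3 CPM with PBS. PBS replicate 1 lay among the Candida albicans libraries, the log2 fold change was 0.88 (SE 0.43, adjusted p = 0.21), and without PBS replicate 1 it was 1.53.

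The acyl-CoA thioesterase genes Acot1 (cytosolic) and Acot2 (mitochondrial) were low. Acot1 had 2.86, 5.42 and 10.9 CPM with Candida albicans and 6.76, 4.67 and 8.02 CPM with PBS (log2 fold change -0.02, SE 0.49, adjusted p = 0.98), and leaving out single libraries moved that value from -0.64 without Candida albicans replicate 3 to 0.34 without Candida albicans replicate 1. With the smooth muscle covariate it was -0.93. Acot2 had 4.15, 4.80 and 6.49 CPM with Candida albicans and 4.88, 4.79 and 3.21 CPM with PBS (log2 fold change 0.26, SE 0.29, adjusted p = 0.55), and its value was -0.05 with the smooth muscle covariate. Both overlapped between the groups, and 24.5% of the windows of 50 bases in Acot2 transcripts also occur in Acot1. Ucp2, an inner-membrane carrier of the uncoupling protein family, was abundant and overlapped, with 560.0, 523 and 439 CPM with Candida albicans and 455, 598 and 418 CPM with PBS (log2 fold change 0.05, SE 0.20, adjusted p = 0.88).

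Both fatty acid omega-hydroxylase genes, which are strongly induced by PPAR alpha ligands in mouse liver, were at the edge of detection. Cyp4a10 had 10, 7 and 22 counts in the Candida albicans libraries and 2, 2 and 2 counts in the PBS libraries. Pooled over the libraries this was 39 counts against 6, a ratio of 7.60 per scaled total with an exact 95% interval of 3.19 to 22.0, which covers counting error only. Cyp4a32 shares 24.5% and Cyp4a31 shares 15.0% of the windows of 50 bases in Cyp4a10 transcripts, so these few reads cannot be tied to Cyp4a10 with certainty. Cyp4a14 had 2 counts in Candida albicans replicate 1 and 0 in the other libraries, where 3 counts, taken as the upper limit of a count of 0, correspond to 0.113 to 0.143 CPM.

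**Figure D4:**
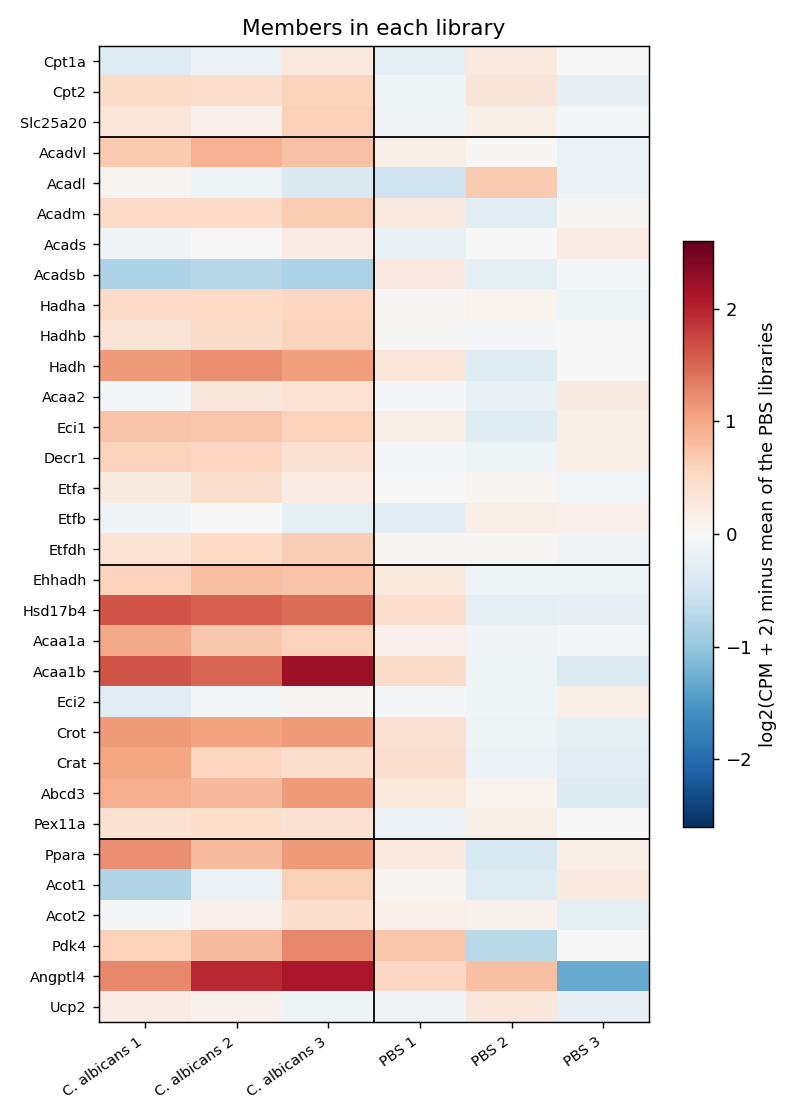
Level of the 32 tested members in each library, as log2(CPM + 2) minus the mean of the 3 PBS libraries, with lines between the role groups and between Candida albicans (left) and PBS (right). Peroxisomal genes other than Eci2, and other members such as Hadh, Acadvl, Eci1 and Ppara, are high across the Candida albicans libraries. Acadsb is low, and Angptl4, Pdk4, Acot1 and Acadl differ between libraries of the same group.

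Levels per kilobase of gene length placed Hadh first with Candida albicans and Acadl first with PBS. Acaa1a, Acadl and Acaa2 were near the top of both groups. With Candida albicans, Hadh (121 CPM per kilobase), Acaa1a (117), Acadl (95.9), Hsd17b4 (82.2) and Acaa2 (78.6) were the most abundant by their means. With PBS, Acadl (112 CPM per kilobase), Ucp2 (70.1), Acaa1a (68.4), Acaa2 (67.4) and Etfa (61.9) were, and Hsd17b4 had 28.4. Acadsb, Acot1, Acot2 and the Cyp4a genes were at the lower end of both groups. The means in PBS of Ucp2, Acaa1a and Acaa2 differ by less than the spread of Ucp2 between PBS libraries. The PBS mean of Acadl rests largely on replicate 2, with 341 CPM against 146 and 189.5 CPM in replicates 1 and 3.

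Other genes of these pathways were taken from lists by role, chosen like the members with results of these data known. Of 52 further genes tested on the peroxisomal list, 24 had an unadjusted p under 0.05 on the higher side and 1 on the lower side in edgeR's test. The shares of all genes were 13.4% and 16.2%, and the median log2 fold change was 0.34 against -0.16. The list holds Pmp22, the gene of peripheral myelin protein 22, which is not a peroxisomal gene. Pmp22 overlapped between the groups (log2 fold change 0.90, SE 0.69, adjusted p = 0.39). Cat, the catalase that removes hydrogen peroxide in peroxisomes, had 238, 247 and 251 CPM with Candida albicans and 139.7, 70.2 and 80.3 CPM with PBS, without overlap (log2 fold change 1.34, SE 0.27, adjusted p = 0.078). Slc27a2, a very long chain fatty acid transporter and acyl-CoA synthetase, had a log2 fold change of 1.47 (SE 0.22, adjusted p = 0.073), the dienoyl-CoA reductase Decr2 0.65 (SE 0.10, adjusted p = 0.073) and the protease Lonp2 0.76 (SE 0.13, adjusted p = 0.073). Of 28 further carnitine and mitochondrial genes, 4 were on each side at an unadjusted p under 0.05, with a median of 0.05, which is near the 13.4% and 16.2% of all genes on those sides. Slc22a5, the cell-surface carnitine transporter, was higher at 1.20 (SE 0.22, adjusted p = 0.073), and Acsl5, the main acyl-CoA synthetase gene of enterocytes, had 1.37 (SE 0.42, adjusted p = 0.11). The isovaleryl-CoA dehydrogenase Ivd, of leucine breakdown, was lower at -0.69 (SE 0.15, adjusted p = 0.079), as were the synthetases Acsl4 at -1.49 (SE 0.37, adjusted p = 0.085) and Acsl6 at -2.53 (SE 0.58, adjusted p = 0.080). All 3 had every Candida albicans library below every PBS library, and Acsl6 had 6, 4 and 4 counts with Candida albicans and 55, 16 and 28 counts with PBS.

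Genes of ketone bodies stood on both sides. Acat1, the mitochondrial acetoacetyl-CoA thiolase, had a log2 fold change of 0.02 (SE 0.13, adjusted p = 0.92). Oxct1, the transferase that activates acetoacetate for use, had 102, 84.2 and 131 CPM with Candida albicans and 241, 354 and 230.2 CPM with PBS, and all Candida albicans libraries were below all PBS libraries (log2 fold change -1.38, SE 0.24, adjusted p = 0.073). Bdh1, which interconverts the ketone bodies, was lower at -0.45 (SE 0.11, adjusted p = 0.081), and the transporter gene Slc16a6 had 0.52 (SE 0.18, adjusted p = 0.12). Of the 11 genes tested, 2 on each side had an unadjusted p under 0.05, and the median log2 fold change was -0.18. That median is close to the -0.16 of all genes.

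Among receptors and coregulators, 7 of 23 tested genes had an unadjusted p under 0.05 on the higher side and 2 on the lower side, against 13.4% and 16.2% of all genes, with a median of 0.13. Rxra, the partner of PPAR alpha, had 220.5, 202 and 210.4 CPM with Candida albicans and 142, 173 and 144 CPM with PBS, without overlap (log2 fold change 0.46, SE 0.13, adjusted p = 0.095). Ppargc1a, a coactivator of oxidative metabolism, had 0.60 (SE 0.17, adjusted p = 0.093), and the related Pprc1 was lower at -1.17 (SE 0.32, adjusted p = 0.093). The receptor genes Ppard at 0.13 (SE 0.16, adjusted p = 0.58) and Pparg at -0.25 (SE 0.58, adjusted p = 0.78) overlapped between the groups. Hnf4g, an enterocyte transcription factor, had 0.97 (SE 0.19, adjusted p = 0.078), its relative Hnf4a 0.35 (SE 0.17, adjusted p = 0.22) and the corepressor Nrip1 0.66 (SE 0.14, adjusted p = 0.078). Of 49 further PPAR alpha target genes tested, 27 reached an unadjusted p under 0.05 on the higher side and 3 on the lower side, with a median log2 fold change of 0.85. For all genes those shares were 13.4% and 16.2%, and the median -0.16. Fabp1, a fatty acid binding protein, had 1288, 844 and 555 CPM with Candida albicans and 228, 219.8 and 125 CPM with PBS (log2 fold change 2.23, SE 0.38, adjusted p = 0.073). The lipid droplet coat gene Plin2 had 0.65 (SE 0.14, adjusted p = 0.079), the fatty acid receptor Cd36 1.55 (SE 0.45, adjusted p = 0.099), the pantetheinase Vnn1 1.60 (SE 0.58, adjusted p = 0.14), the retinol saturase Retsat 1.96 (SE 0.19, adjusted p = 0.064) and the mitochondrial carrier Slc25a34 0.79 (SE 0.14, adjusted p = 0.073). Slc27a1, a fatty acid transporter, was lower at -0.81 (SE 0.14, adjusted p = 0.073). Fabp2 and Apoa4 of this list are also among the 10 mature enterocyte markers, whose sum was higher in the same libraries.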

How the data were processed

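Sequenced were 3 libraries of intestinal epithelium from Apoe-/- mice given Candida albicans and 3 from mice given PBS. The deposited table holds whole-number counts per gene; per the submitters' processing notes, featureCounts 2.0.1, HISAT2 2.2.1 and Trim Galore 0.6.7 were used with mm10; these notes do not state strand or multi-mapping settings. Totals of 21406930 to 24891735 counts set the precision, and 3 counts, the upper limit of a count of 0, are 0.113 to 0.148 CPM.

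Genes passing filterByExpr (minimum count 10, minimum total 15) were fitted in edgeR 4.0.16 (R 4.3.3) with TMM scaling and robust quasi-likelihood tests over all 16313 tested genes, with Benjamini-Hochberg adjustment. The standard error is the size of the log2 fold change divided by the root of F. DESeq2 1.42.0, limma 3.58.1, other scalings and filters, a replicate block, a smooth muscle covariate and the removal of each library were alternatives. The test was also run on simulated counts, drawn independently for each gene and library. They held no differences in cell composition between libraries, so they cannot show how the test behaves with such differences. Members and lists were chosen with earlier results of these data known. Named are all 34 members, the 4 genes of lowest p in each further list, and 15 genes fixed by name, some of which are not reported here.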

Additional observations from a re-analysis of the deposited data

How the results depend on the processing

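Unadjusted calls of members kept within 17 to 22 higher and 1 lower in every setting except library totals (11 higher) and the smooth muscle covariate (13 higher). Over all genes the shares in those other settings were 7.66% to 18.8% higher and 8.63% to 23.2% lower. They were 5.28% and 33% under library totals and 10.7% and 13.4% with the covariate. At an adjusted p under 0.05, with 0 genes called in edgeR, upper-quartile scaling called 1 higher and 2 lower of all genes, library totals 14 and 174, the DESeq2 Wald test 1745 and 1166, limma-voom with quality weights 1232 and 1337, no count filter 295 and 257, a mean of 5 CPM or more 10 and 33, the muscle covariate 14 and 28, and both replicates 1 left out 1136 and 974. Members called were 1 higher and 1 lower under library totals, 19 and 1 in DESeq2, 16 and 1 with quality weights, 9 and 0 without a filter, and 14 and 0 without both replicates 1. Leaving out single libraries gave 0 to 1695 genes higher and 0 to 925 lower, and members 0 to 18 higher and 0 to 1 lower. At an adjusted p under 0.1 these removals gave 0 to 19 members higher and 0 to 1 lower. The shares of all genes were then 0% to 15.5% and 0% to 10.6%. At that threshold library totals gave 9 higher members, against 3.93% of all genes. The muscle covariate gave 9 higher and 0 lower, against 4.12% and 4.84%. With the replicate number as a block, 1030 genes were higher and 1050 lower (6.31% and 6.44%), among them 11 and 1 members. Deviations of same-numbered libraries correlated at 0.576, 0.357 and 0.046. Candida albicans replicates 1 and 2 each correlated best with the PBS library of the same number, and replicate 3 with PBS replicate 2 (0.408). The main fit had no block because the labels do not state that the numbers pair the libraries. Whether they do was not tested. Library totals put the median of all genes at -0.45, the upper quartile at -0.20, TMM at -0.16 and DESeq2 size factors at -0.08. The mitochondrial median (0.47) was 0.55 under DESeq2 size factors and in the Wald test, 0.19 under library totals, 0.41 with quality weights, 0.42 at 5 CPM or more, 0.33 with the covariate, 0.57 without both replicates 1, and 0.42 to 0.55 without single libraries. The peroxisomal median (0.77) was 0.48 under library totals, 0.99 with the covariate, 1.04 without both replicates 1, and 0.77 to 1.04 without single libraries. Signs turned only in members whose groups overlapped. Cpt1a was 0.0323 under DESeq2 size factors, 0.0324 in the Wald test, 0.0759 without both replicates 1, and up to 0.15 without single libraries (PBS replicate 2). Acot1 was 0.0842 under DESeq2 size factors and in the Wald test, 0.49 without both replicates 1, and -0.6388 to 0.34 without single libraries. Acads was -0.25 under library totals, -0.0074 at 5 CPM or more, -0.12 with the covariate and as low as -0.0493 without Candida albicans replicate 3. Under library totals Acaa2 was -0.0656, Acot2 -0.0014 and Ucp2 -0.23. Acot2 was -0.0547 with the covariate, and Ucp2 was -0.0006 with quality weights and as low as -0.0222 without Candida albicans replicate 1. Eci2 was 0.0915 without both replicates 1, and -0.1507 to 0.0301 without single libraries. Without single libraries Acadl was -0.3538 to 0.27 and Etfb -0.1857 to 0.0373, the upper values without PBS replicate 2. The causes were not tested.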
